A study of Mus musculus with 10 samples.

Results

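The p53 gene Trp53 and 9 genes that p53 is known to switch on (Cdkn1a, Mdm2, Eda2r, Aen, Bax, Bbc3, Ccng1, Phlda3 and Sesn2) were followed in the dentate gyrus of mice given extra Sox11. The 10 genes were chosen by symbol, and each was found once among the 48526 gene identifiers of the deposited table. Sox11 is a transcription factor of immature neurons, and the dentate gyrus is the hippocampal region where granule neurons lie and are born in the adult. All mice were of the C57Bl/6 strain and 8 weeks old. In 5 mice an adeno-associated virus of serotype 9 (AAV) carrying Sox11 had been injected into both dentate gyri, and 5 control mice had received the same serotype carrying GFP, a fluorescent protein. Every mouse had therefore received a virus, and an uninjected group was not analysed here. The sources used here do not give the promoter of the viral genes, the cells that took up virus, the sex of the mice or the time from injection to dissection. Each library came from the microdissected dentate gyrus of 1 mouse and carries the number of its deposited column (1, 3, 4, 5 and 6 for GFP, and 1, 2, 3, 6 and 7 for Sox11). The labels give 1 mouse per library, so n counts mice.

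p53 is a transcription factor that responds to DNA damage and other stress. In resting cells MDM2, itself the product of a p53 target, marks p53 for degradation, so the amount and activity of p53 are set largely at the protein level, which was not measured here. Its targets stop the cell cycle, start cell death, act on metabolism or feed back on p53, and in neurons p53 is known both for cell death and for roles in axon growth. p53 binds DNA as a tetramer at a response element, which is made of 2 copies of a 10-base half-site with a C and a G at fixed places in its core.

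All 10 members had at least 1 entry in the RefSeq promoter table on GRCm38.p6, 14 windows in all, each reaching from 250 bases before a transcription start to 50 bases after it. The windows were searched for pairs of the p53 consensus half-site, which reads the same on both strands, with at most 2 mismatches in 20 bases, none in the core C and G, and 0 to 2 bases between the copies. Of the windows of all tested genes 1.02% held such a pair. Among the members Cdkn1a, Bax and Ccng1 held 1 each. These pairs are shown because 2 of the genes rose in the Sox11 libraries and the other did not pass the test, and capitals mark the 4-base core of each half-site:
Cdkn1a, chr17:29090928-29090947, plus strand: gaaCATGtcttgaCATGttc
Bax, chr7:45467079-45467099, minus strand: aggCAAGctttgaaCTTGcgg
Ccng1, chr11:40755462-40755481, minus strand: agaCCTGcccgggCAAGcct
The Cdkn1a pair had 1 mismatch and its first base at position -51 from the first of 2 RefSeq starts of the gene. The Bax pair had 2 mismatches, a spacer of 1 base and its first base at position -201, and the Ccng1 pair had 1 mismatch and began at position -195. Single half-sites without a mismatch, which 7.05% of the windows of tested genes held, were also present in the windows of Trp53, Mdm2 and Aen. No half-site free of mismatches was found in these windows for Eda2r, Bbc3, Phlda3 or Sesn2, and elements outside the windows were not searched.

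**Figure D1:**
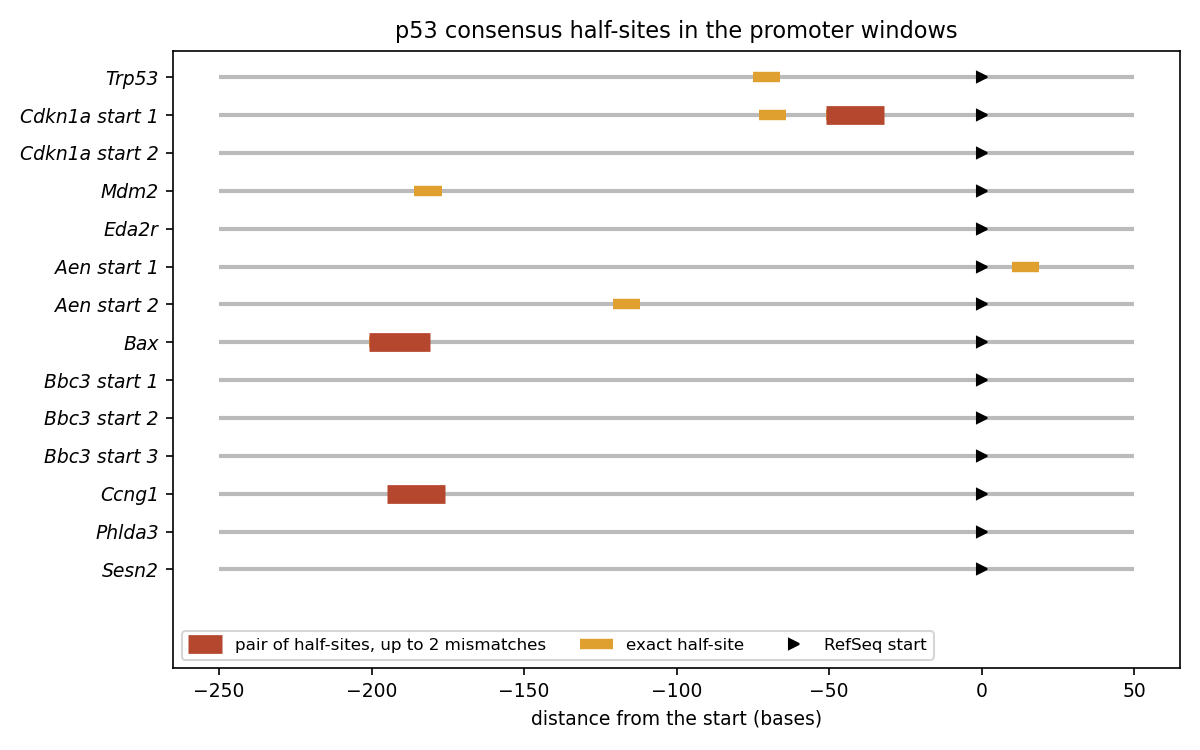
Positions of p53 consensus half-sites in the 14 promoter windows of the 10 genes, with the distance from the RefSeq start in bases on the horizontal axis and 1 window per line. Broad red bars are pairs of half-sites (Cdkn1a, Bax and Ccng1), narrow yellow bars are single half-sites without a mismatch, and arrowheads are the starts.

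The 250 bases before the start are given for Trp53, for Cdkn1a at its first start, and for Eda2r, the member with the largest change, with the half-sites in capitals over all of their 10 bases:
Trp53, chr11:69580109-69580358, plus strand: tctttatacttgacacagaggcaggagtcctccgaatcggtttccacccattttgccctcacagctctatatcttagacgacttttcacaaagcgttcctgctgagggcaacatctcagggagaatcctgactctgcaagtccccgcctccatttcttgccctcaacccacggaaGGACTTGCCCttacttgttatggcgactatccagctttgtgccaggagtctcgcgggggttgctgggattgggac
Cdkn1a, chr17:29090729-29090978, plus strand: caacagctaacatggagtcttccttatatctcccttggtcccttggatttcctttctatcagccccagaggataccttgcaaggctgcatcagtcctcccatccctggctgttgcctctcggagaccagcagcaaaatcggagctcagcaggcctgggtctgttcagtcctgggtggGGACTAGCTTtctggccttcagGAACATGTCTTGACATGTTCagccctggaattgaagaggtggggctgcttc
Eda2r, chrX:97377210-97377459, minus strand: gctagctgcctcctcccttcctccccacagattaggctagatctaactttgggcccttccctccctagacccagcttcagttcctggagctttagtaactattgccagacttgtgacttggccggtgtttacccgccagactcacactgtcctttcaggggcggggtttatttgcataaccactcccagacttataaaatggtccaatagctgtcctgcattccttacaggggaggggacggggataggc
The Trp53 window also held 2 copies of ACAAAG, letters of the kind that Sox proteins bind, counted on both strands and not overlapping the half-site. Mdm2 had 1 copy and the windows of the other 8 members had 0, against 14.1% of the windows of tested genes with at least 1. A match of letters in a window is a description and was not tested for binding.

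Between 45100154 and 68769808 reads were assigned to genes per library. Sox11 itself had 1364 to 1634 normalized counts in the GFP libraries and 9803 to 20434 in the Sox11 libraries, the highest in Sox11 3. Reads of the viral and the mouse gene are not told apart. Normalized counts are reads divided by a scaling factor for each library. Of 7 markers of granule neurons none was at 0 in any library, Rfx3 rose and Plk5 and C1ql2 fell, with summed levels of 65684 to 92071 in GFP libraries and 70177 to 98373 in Sox11 libraries. Of 6 immature neuron markers 2 rose, Dcx and Tubb3, and the summed level was 16813 to 22975 in GFP and 31063 to 43392 in Sox11 libraries. Tubb3 (GFP and Sox11 means 10017 and 22345) and Dcx (1242 and 4292) carried the difference in that sum. The other 4 did not pass, with means of 5989 and 6080 for Calb2 and 960 and 853 for Sox4. Of 5 astrocyte markers 2 rose, Gfap and Aldh1l1 (summed levels 84822 to 98782 and 91390.3 to 109267). Of 6 interneuron markers Gad2 fell (30622 to 36897 and 25235 to 31649.7). Among 30 tested markers of microglia, oligodendrocytes, endothelium, choroid plexus, leukocytes and dividing cells limma called 0 (5 had an unadjusted p under 0.05, edgeR called 2 and DESeq2 1). The choroid plexus marker Kl was not called (adjusted p = 0.0707), with 1448 to 13733 in GFP and 603 to 938 in Sox11 libraries. Of 7 leukocyte markers 3 were tested, and the rest averaged under 10 normalized counts. Among those Cd8a had 0 to 6.76 in GFP and 9.89 to 12.7 in Sox11 libraries, on at most 13 reads. The choroid plexus markers summed to 373426 in GFP 3 and to at most 3109 in any other library. Of 5 genes of acute stress, as in dissection, Jun, Hspa1a and Hspa1b fell (9523 to 13209 and 7639 to 9987). Their part in the results was not tested.

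Trp53 and 5 of its 9 listed targets were higher in the Sox11 libraries, Mdm2 was slightly lower, and Ccng1, Phlda3 and Sesn2 did not pass the test. A gene was called when the adjusted p from limma was below 0.05, with adjustment over all 17007 genes that averaged 10 or more normalized counts. All 10 members reached that average in both groups. Of all tested genes 9.65% rose and 9.36% fell. The 6 members that rose were also those whose 5 Sox11 values all lay above all 5 GFP values, as they did for 8.63% of tested genes. No member had all Sox11 values below all GFP values, a pattern of 7.29% of tested genes. The median log2 fold change of the 10 members was 0.24, beside -0.01 over all tested genes. The members were picked with earlier results of these data known, so their counts are a description of these 10 genes. In tissue RNA, more cells of a type and more RNA per cell cannot be told apart.

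Trp53 (ENSMUSG00000059552, chromosome 11, 69580359 to 69591873, plus strand, GRCm38), which encodes p53, had 1152, 1027, 1051, 1159.9 and 1083 normalized counts in GFP 1, 3, 4, 5 and 6. In Sox11 1, 2, 3, 6 and 7 it had 1330.2, 1338, 1344, 1261 and 1411. The groups did not overlap, with a gap wider than the SD of either group between the highest GFP library, GFP 5, and the lowest Sox11 library, Sox11 6. The means were 1095 ± 59.3 and 1337 ± 53.02 (SD, n = 5 each). Trp53 thus rose by 0.29 on the log2 scale (SE 0.05, adjusted p = 0.00265), or 1.22-fold with a 95% interval of 1.13 to 1.32. Leaving out any 1 library kept the call, with log2 fold changes between 0.27 and 0.31. Of the 31-base words of its transcripts 89.9% occur in no other gene.

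**Figure D2:**
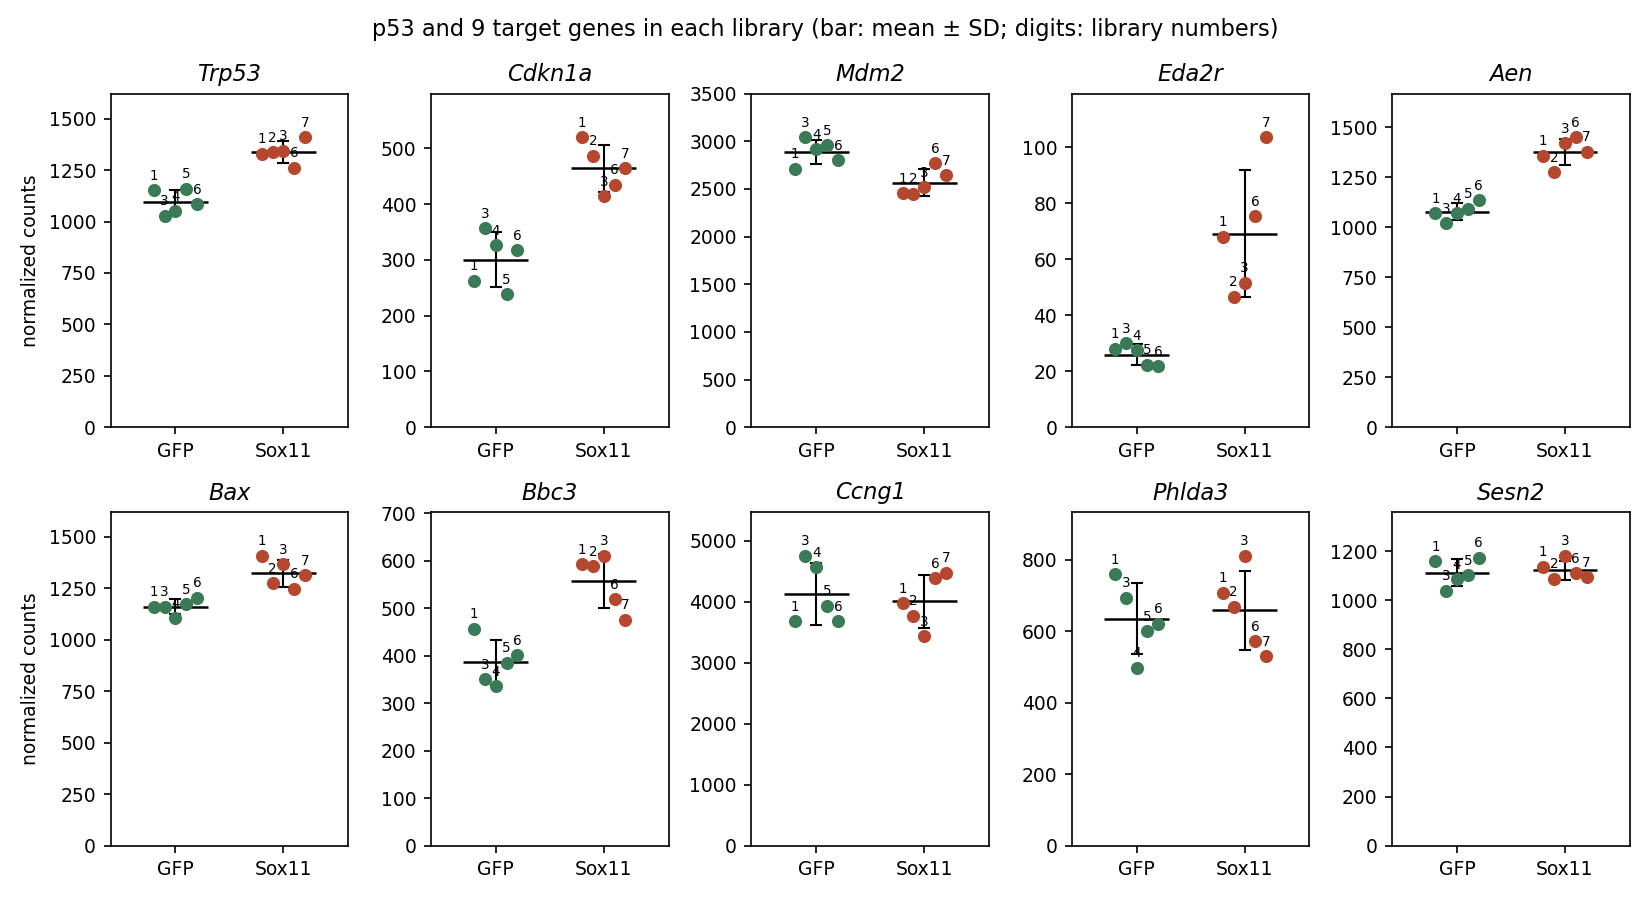
Normalized counts of the 10 genes in each library (vertical axes, each starting at 0) for the 5 GFP and the 5 Sox11 libraries, with the library numbers beside the points and the mean ± SD of each group as bars. For Trp53, Cdkn1a, Eda2r, Aen, Bax and Bbc3 every Sox11 point lies above every GFP point, while the points of Ccng1, Phlda3 and Sesn2 overlap.

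Cdkn1a and Ccng1 act on the cell cycle. Cdkn1a (ENSMUSG00000023067, chromosome 17, 29090976 to 29100727) encodes p21, the inhibitor of cyclin-dependent kinases that carries out much of p53's cell cycle arrest. It had 263, 357, 327, 238 and 318 normalized counts in GFP 1, 3, 4, 5 and 6, and 520.2, 486, 414, 435 and 465 in Sox11 1, 2, 3, 6 and 7. The highest GFP value, that of GFP 3, stayed below the lowest Sox11 value, that of Sox11 3. Cdkn1a rose from 300.4 ± 48.8 to 464 ± 41.7 (SD, n = 5 each), 1.55-fold (95% interval 1.30 to 1.85, adjusted p = 0.00321), and without GFP 3 its log2 fold change was 0.70 against 0.64 with all libraries. Its first RefSeq start carries the pair of half-sites shown above. An opposite-strand gene covers 7.68% of its exons.

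Ccng1 (ENSMUSG00000020326, chromosome 11, 40748552 to 40755311), which encodes cyclin G1 and whose window also holds a pair of half-sites, did not pass the test. It had 3679.8 to 4756 normalized counts in the GFP libraries (median 3930.2) and 3429.9 to 4473 in the Sox11 libraries (median 3978). The values interleaved, with GFP 3 and GFP 4 highest and Sox11 3 lowest. The log2 fold change was -0.04 (SE 0.09, adjusted p = 0.840), with a 95% interval of -0.24 to 0.17. The Cdkn1a change of 0.64 lies outside that interval.

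Of the 5 members that act in cell death or survival, Eda2r, Bbc3, Bax and Aen rose and Phlda3 did not pass. Eda2r (ENSMUSG00000034457, chromosome X, 97333840 to 97377216, minus strand) encodes a receptor of the tumour necrosis factor family that binds the ligand ectodysplasin A2. It had 28.02, 29.9, 27.5, 22.4 and 21.8 normalized counts in GFP 1, 3, 4, 5 and 6, and 68.1, 46.7, 51.7, 75.5 and 104 in Sox11 1, 2, 3, 6 and 7. Each Sox11 library exceeded each GFP library, and the Sox11 libraries differed among themselves by more than the GFP libraries did, with Sox11 7 highest. The means were 25.9 ± 3.63 and 69.1 ± 22.6 (SD, n = 5 each), a rise of 2.52-fold on the log2(normalized count + 1) scale (95% interval 1.81 to 3.51, adjusted p = 0.00181). Only 108 of the 17007 tested genes had a larger log2 fold change. Eda2r rested on 21 to 98 reads per library, the fewest of the 10 genes. Sox11 3, the library with the most Sox11 transcript, had the Eda2r value next to the lowest among the Sox11 libraries.

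Bbc3 and Bax encode proteins of the Bcl-2 family that promote the release of cytochrome c from mitochondria, Bbc3 (PUMA) as a trigger and Bax as the pore-forming protein. Bbc3 (ENSMUSG00000002083, chromosome 7, 16308393 to 16318205) had 457, 351, 337, 385 and 402 normalized counts in GFP 1, 3, 4, 5 and 6, and 593, 589, 611, 519.9 and 476 in Sox11 1, 2, 3, 6 and 7. The groups came close at GFP 1 and Sox11 7 and did not overlap. Bbc3 rose 1.44-fold (95% interval 1.24 to 1.68, adjusted p = 0.00388), from 386 ± 47.3 to 558 ± 57.3 (SD, n = 5 each). Bax (ENSMUSG00000003873, chromosome 7, 45461697 to 45466898) had 1161, 1159.8, 1105, 1174 and 1204 in GFP 1, 3, 4, 5 and 6, and 1409, 1275, 1366, 1248 and 1312 in Sox11 1, 2, 3, 6 and 7. Its groups did not overlap either, and its rise was the smallest of the 6, 1.14-fold (95% interval 1.06 to 1.22, adjusted p = 0.0181), from 1161 ± 35.7 to 1322 ± 65.9. The Bax call was lost when no minimum level was set for testing (28745 genes tested, adjusted p = 0.0502). Another gene on the same strand covers 12.2% of the exons of Bax, and 88.9% of its 31-base words are its own.

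Aen (ENSMUSG00000030609, chromosome 7, 78895854 to 78911209) encodes an exonuclease that enhances apoptosis. It had 1071, 1022, 1070.1, 1094 and 1135 normalized counts in GFP 1, 3, 4, 5 and 6, and 1358, 1276, 1419, 1451 and 1378 in Sox11 1, 2, 3, 6 and 7. The lowest Sox11 library stood above the highest GFP library by more than the SD of either group. Its rise of 1.28-fold (95% interval 1.18 to 1.37, from 1078 ± 41.2 to 1376 ± 67.0, SD, n = 5 each) was smaller than those of Eda2r, Cdkn1a and Bbc3 but had the lowest adjusted p of the members, 0.000695.

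**Figure D3:**
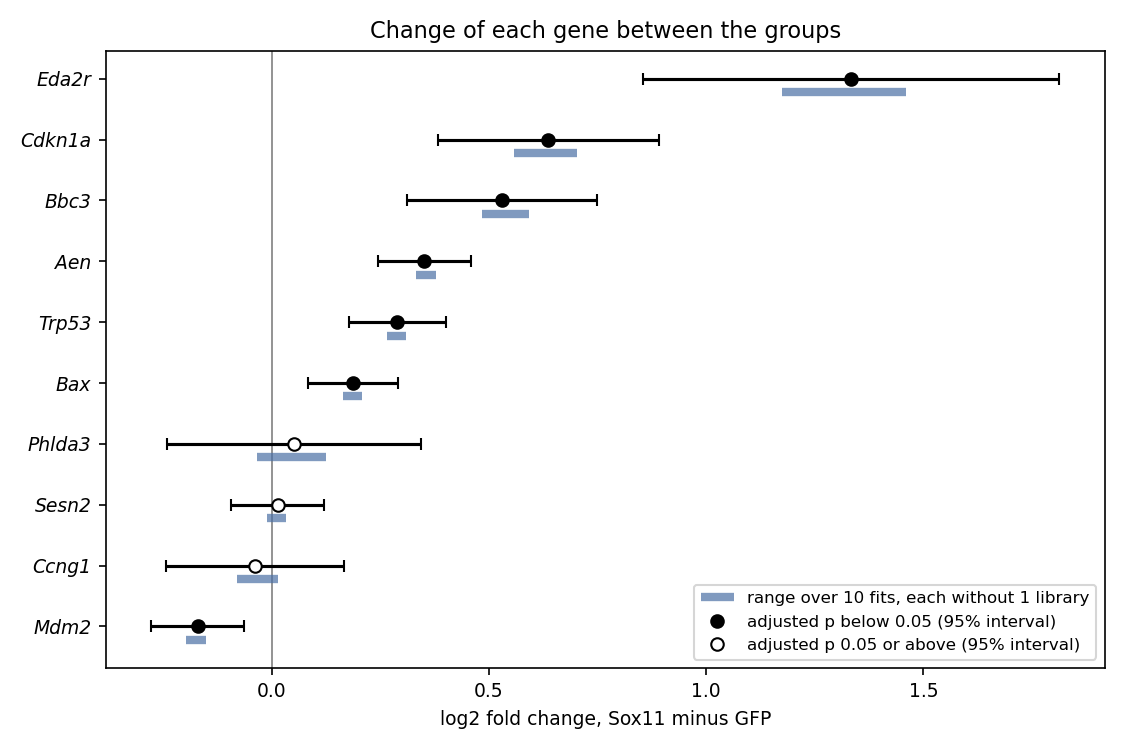
Log2 fold change of each gene, Sox11 minus GFP (horizontal axis), with its 95% interval. Filled points passed the test, open points did not, and blue bars give the range over 10 fits that each leave out 1 library. Eda2r stands farthest to the right at 1.33 and Mdm2 farthest to the left at -0.17.

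Phlda3 (ENSMUSG00000041801, chromosome 1, 135766119 to 135769136), whose small lipid-binding protein opposes the survival kinase Akt, did not pass. It had 759.5, 693, 497, 599.8 and 621 normalized counts in GFP 1, 3, 4, 5 and 6, and 707, 668, 811, 572 and 530.2 in Sox11 1, 2, 3, 6 and 7. In either group the libraries numbered 1 to 3 were above those numbered 4 to 7, and the groups overlapped over most of their range. The log2 fold change was 0.05 (SE 0.13, adjusted p = 0.855), with a 95% interval for the ratio of 0.845 to 1.27.

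Sesn2 (ENSMUSG00000028893, chromosome 4, 132492032 to 132510501) encodes sestrin 2, which restrains mTOR signalling when nutrients are short or oxidants rise. It had 1039 to 1172 normalized counts (median 1102) in the GFP libraries and 1088 to 1182 (median 1109) in the Sox11 libraries. The ratio was 1.01 with a 95% interval of 0.938 to 1.09 (adjusted p = 0.892). The 1.22-fold change of Trp53 lies outside that interval.

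Mdm2 (ENSMUSG00000020184, chromosome 10, 117688875 to 117710758, minus strand), the ubiquitin ligase that limits p53, was the member that fell. It had 2713, 3044, 2916, 2956 and 2803 normalized counts in GFP 1, 3, 4, 5 and 6, and 2455, 2449, 2516, 2769 and 2643 in Sox11 1, 2, 3, 6 and 7. In 4 of the 5 Sox11 libraries the value was below every GFP library, and Sox11 6 lay above GFP 1. The means were 2886 ± 129.9 and 2566 ± 138 (SD, n = 5 each), a ratio of 0.889 (95% interval 0.825 to 0.957, adjusted p = 0.0318). Leaving out any 1 of GFP 3, GFP 4, GFP 5, Sox11 1, Sox11 2 and Sox11 3 ended the call (adjusted p between 0.0615 and 0.0771), as did testing with no minimum level (adjusted p = 0.0678), and the log2 fold change stayed between -0.20 and -0.15 with any library left out. Its RefSeq window covers the annotated start of the gene, and the counts do not separate transcripts from different starts.

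Divided by exon length, the members spanned a wide range of levels in the GFP libraries. Ccng1 was highest at 1174 ± 144 normalized counts per kilobase of exon (SD, n = 5), followed by Bax (736 ± 22.6), Mdm2 (567.9 ± 25.6), Phlda3 (407 ± 63.6), Sesn2 (319.8 ± 15.8) and Trp53 (271 ± 14.7). Aen (186 ± 7.11), Bbc3 (182 ± 22.3), Cdkn1a (84.6 ± 13.7) and Eda2r (4.40 ± 0.616) were lowest. The ranges of Phlda3 and Sesn2 overlapped, as did those of Aen and Bbc3, and every other neighbour in the order was separated in all 5 GFP libraries. The 2 members with the largest fold changes, Eda2r and Cdkn1a, were the 2 with the lowest levels per length. In the Sox11 libraries Bbc3 (263 ± 27.0) had a higher mean than Aen (237 ± 11.6).

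**Figure D4:**
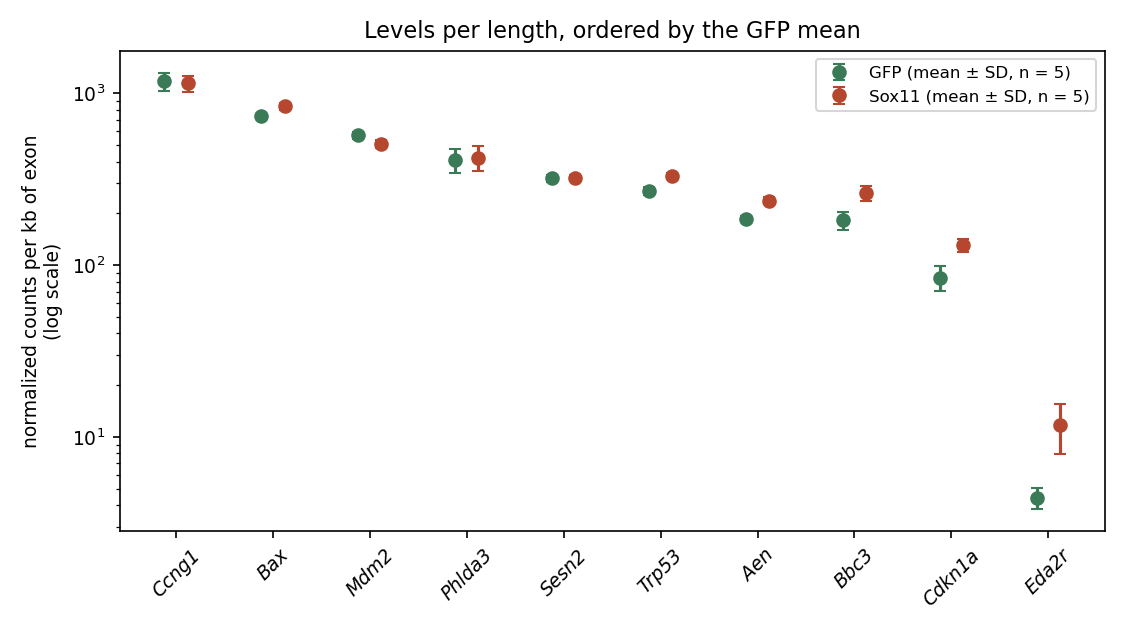
Normalized counts per kilobase of exon on a log scale (vertical axis) for the 10 genes, ordered by their GFP mean, as the mean ± SD of 5 libraries a group. Levels fall from Ccng1 at 1174 to Eda2r at 4.40 in the GFP group.

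The deposited column numbers were divided into 1 to 3 and 4 to 7, a division chosen with earlier results of these data known. With this division as a covariate limma called 4048 genes against 3234 without it, which is no test of the division. In libraries 1 to 3 (2 GFP, 3 Sox11) the log2 fold changes were 0.30 for Trp53, 0.62 for Cdkn1a, 0.90 for Eda2r, 0.37 for Aen, 0.22 for Bax, 0.58 for Bbc3 and -0.22 for Mdm2. In libraries 4 to 7 (3 GFP, 2 Sox11) they were 0.28, 0.62, 1.85, 0.36, 0.14, 0.41 and -0.10 in the same order. All 7 kept their sign, which for the 6 that rose follows from groups that do not overlap. Aen passed within libraries 1 to 3 (adjusted p = 0.0435), and Aen, Cdkn1a, Eda2r and Bbc3 passed within libraries 4 to 7. The Eda2r change was the one that differed most between the divisions, and that difference was not tested. The sources used here do not say what the numbers stand for.

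For 3 members the tested genes of nearest pattern over the 10 libraries were sought, by the root mean square distance between log2 values after each gene was centred on its own mean. For Trp53 they were Cyth2 (distance 0.0298 on the log2 scale), Ptrh2 (0.0442) and Ric8a (0.0481), beside a root mean square of 0.157 for the Trp53 profile itself. For Cdkn1a they were 3110053B16Rik (0.107), Hcrtr2 (0.108) and Msi1 (0.133), beside 0.362. For Eda2r they were Iigp1 (0.215), Gm37233 (0.218) and Slco5a1 (0.220), beside 0.736. The points share libraries and the group difference, so these are descriptions.

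Among 19 tested regulators of p53 2 rose and none fell in limma's test (at an unadjusted p under 0.05 4 were higher and 1 lower, and edgeR called 2 and DESeq2 3 higher and 0 lower). The shares of all tested genes in limma's test were 9.65% for a rise and 9.36% for a fall. Ppm1d, the phosphatase WIP1 that switches off p53 signalling and is a p53 target, rose 1.32-fold from 912 ± 52.7 to 1205 ± 98.7 normalized counts (SD, n = 5 each, adjusted p = 0.0018), with no overlap between the groups. Trp53inp1, a p53-induced nuclear protein, rose 1.40-fold (adjusted p = 0.0127), and GFP 4 lay above Sox11 3. Mdm4, the partner of MDM2, had 3945 ± 111 and 3804 ± 177 normalized counts (adjusted p = 0.437). The p53 relatives Trp63 and Trp73 did not pass (log2 fold changes -0.09 and -0.16, adjusted p = 0.692 and 0.645). Cdkn2a, which restrains MDM2, stayed under the minimum level, at 1.02 to 8.06 normalized counts.

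Of 40 other p53 targets 7 rose, 4 fell and 29 did not pass, with a median log2 fold change of 0.07. Of all tested genes 9.65% rose and 9.36% fell, with a median of -0.01. In the list of arrest and feedback genes Ccng2, a relative of Ccng1, rose 1.36-fold (2597 ± 199 to 3524 ± 292 normalized counts, SD, n = 5 each, adjusted p = 0.00122) with no overlap. Gtse1, whose product binds p53, rose 1.54-fold (adjusted p = 0.0255), but leaving out any 1 of GFP 4, GFP 5, Sox11 1, Sox11 3 and Sox11 7 ended that call (adjusted p between 0.0512 and 0.0596). Psrc1, which acts at the mitotic spindle, fell to 0.665 of its GFP level (adjusted p = 0.00238). The list named for cell death is a grouping, and its heading does not give the function of each gene. In that list Trp53i11 rose by 0.58 on the log2 scale (7087 ± 834 to 10577 ± 686, adjusted p = 0.000638) and Dcxr by 0.38 (adjusted p = 0.00251). Triap1, which inhibits cell death, rose 1.16-fold, at an adjusted p of 0.0406 that lay between 0.0611 and 0.0893 when any 1 of GFP 1, GFP 3, GFP 4, Sox11 2, Sox11 3, Sox11 6 and Sox11 7 was left out. None of the 12 fell (0 at an unadjusted p under 0.05, 0 in edgeR and DESeq2).

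In the list of DNA repair and metabolism targets Xpc, which recognises damaged DNA, rose by 0.27 on the log2 scale from 1076 ± 41.6 to 1295 ± 51.6 normalized counts (SD, n = 5 each, adjusted p = 0.00251). Abhd4, a lipase, rose by 0.20 at an adjusted p of 0.0495, which became 0.0819 to 0.111 when any 1 of GFP 1, GFP 5, GFP 6, Sox11 1, Sox11 2, Sox11 6 and Sox11 7 was left out. The glutaminase Gls2 fell to 0.693 of its GFP level (537 ± 55.6 to 372 ± 37.8, adjusted p = 0.00279) with no overlap. The thiamine transporter Slc19a2 fell to 0.808 and Tigar, a fructose bisphosphatase, to 0.897. The Slc19a2 call (adjusted p = 0.0294) ended when any 1 of GFP 1, GFP 4, GFP 6, Sox11 1, Sox11 6 and Sox11 7 was left out (adjusted p between 0.0515 and 0.0607). The Tigar call (adjusted p = 0.0388) ended likewise for GFP 4, GFP 5, GFP 6, Sox11 1, Sox11 2 and Sox11 3 (adjusted p between 0.0736 and 0.0924).

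Casp2, a caspase that acts early in cell death, rose 1.26-fold from 599 ± 38.5 to 756 ± 63.7 normalized counts (SD, n = 5 each, adjusted p = 0.00739), with no overlap between the groups. Of 10 tested members of the Bcl-2 family beside Bax and Bbc3, Bcl2l2, which protects cells from death, fell to 0.877 of its GFP level (adjusted p = 0.0126), and another gene on the same strand covers 13.3% of its exons. The other 9 did not pass, and none rose in limma (2 at an unadjusted p under 0.05, 0 in edgeR, 1 in DESeq2). The shares of all tested genes were 9.65% for a rise and 9.36% for a fall. Among relatives of the members the sestrin gene Sesn3 fell to 0.800 (8802 ± 399 to 7055 ± 527, SD, n = 5 each, adjusted p = 0.00269), while Sesn1 had a log2 fold change of -0.01 (adjusted p = 0.957). Cdkn1b, the kinase inhibitor p27 related to p21, fell to 0.847 (adjusted p = 0.0263), and leaving out any 1 of GFP 4, GFP 5, Sox11 3 and Sox11 6 ended that call (adjusted p between 0.0537 and 0.0640). Eda, the gene of the Eda2r ligand, did not pass (492 ± 40.1 and 455 ± 31.9, adjusted p = 0.361). The related receptor Tnfrsf19 rose 1.26-fold (adjusted p = 0.00677), and Traf3, an adaptor of this receptor family, 1.25-fold (adjusted p = 0.0388), where leaving out any 1 of GFP 1, GFP 3, Sox11 3, Sox11 6 and Sox11 7 ended the call (adjusted p between 0.0637 and 0.0916).

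**Figure D5:**
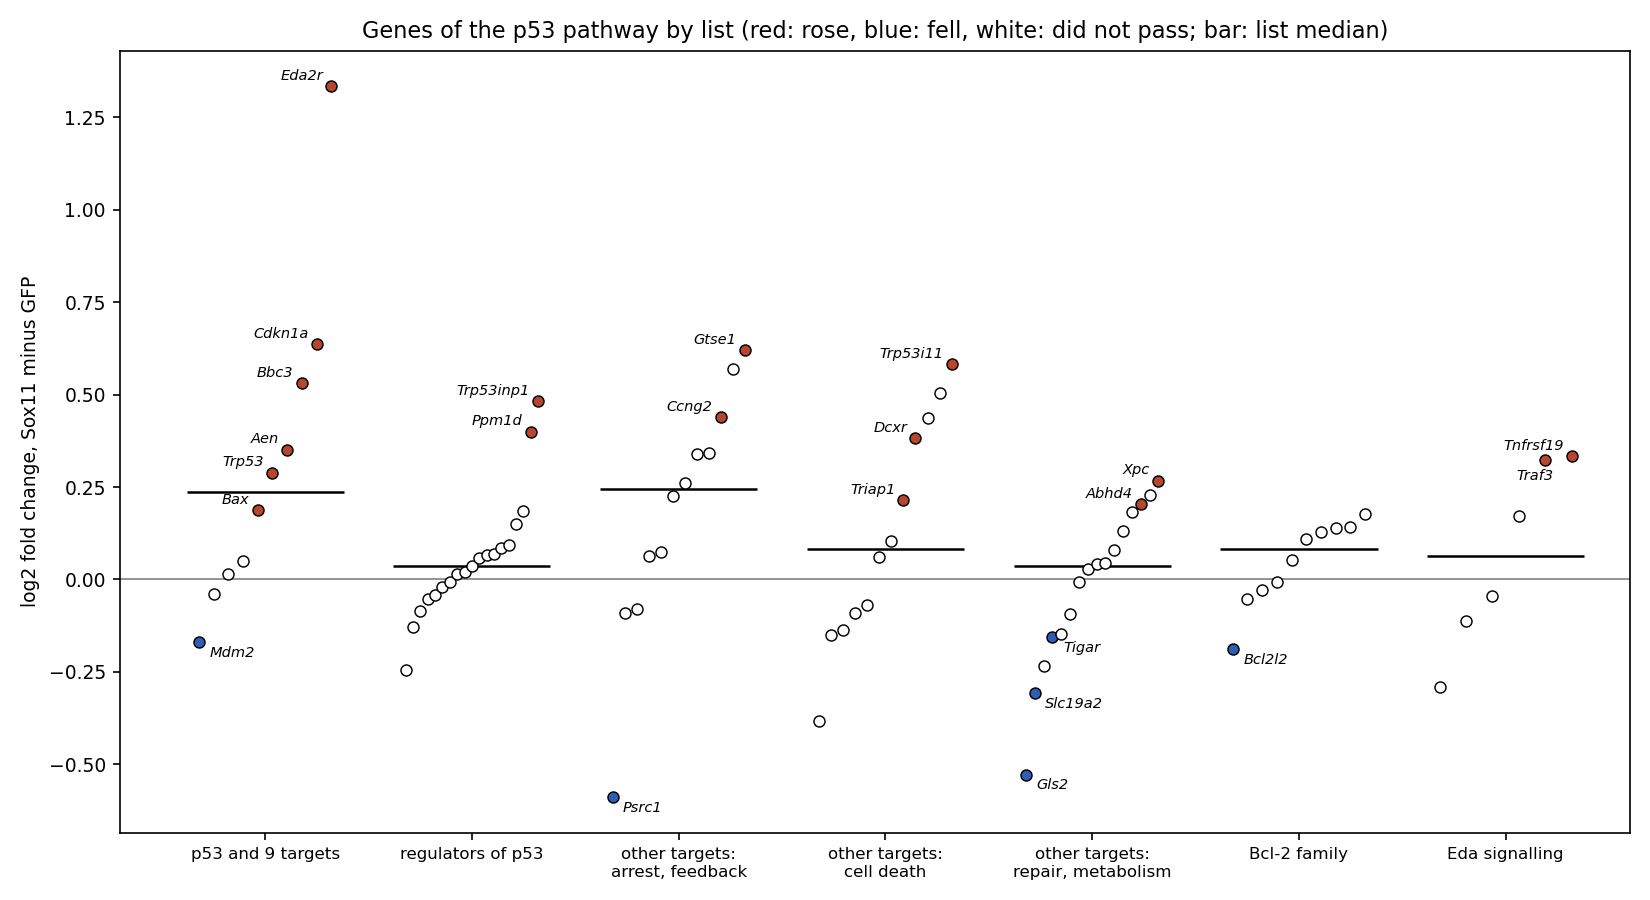
Log2 fold changes, Sox11 minus GFP (vertical axis), of the tested genes of 7 lists, 1 point a gene, with red for genes that rose, blue for genes that fell and white for genes that did not pass, and a bar at the median of each list. Eda2r at 1.33 stands apart from the rest, and the list of repair and metabolism targets holds changes in either direction.

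The immature neuron markers Dcx and Tubb3 and the astrocyte markers Gfap and Aldh1l1 rose in the Sox11 libraries, as the 6 members did. The other markers of these lists did not pass. Their log2 fold changes were -0.17 for Sox4, 0.01 for Neurod1, 0.06 for Calb2 and 0.16 for Igfbpl1 among immature neuron markers. Among astrocyte markers they were 0.04 for Aqp4, 0.03 for Gja1 and 0.08 for Slc1a3. The part of any marker's cells in the changes of the members was not tested. Dcx had 1242 ± 50.1 and 4292 ± 819.8 normalized counts, and Gfap 18714 ± 2021 and 25754 ± 1648 (SD, n = 5 each). Without GFP 3, the library with choroid plexus transcripts, the 6 members kept their calls, with log2 fold changes of 0.27 for Trp53, 0.70 for Cdkn1a, 1.39 for Eda2r, 0.33 for Aen, 0.19 for Bax and 0.50 for Bbc3.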

How the data were processed

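Poly(A) RNA libraries were made with a stranded kit from the dentate gyrus of 5 GFP and 5 Sox11 mice, per the labels' protocols. Alignment to GRCm38 and gene counting are covered by STAR 2.5.2a and featureCounts 1.5.1 (Subread) in the submitters' processing notes, which also name DESeq2 1.12.3, bcl2fastq 1.8.4, R 3.3.1 and cutadapt 1.9.1 without their order. The sources used here do not give the annotation release, strand setting or handling of multi-mapping reads. What the authors deposited is a signal per gene, normalized counts made by dividing reads by a factor for each library. Dividing by the value of 1 read gave whole numbers within 0.01 for 100% of values, so reads were recovered for count tests.

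Columns were assigned to groups only, since their numbers differ from those of the titles. Symbols, coordinates and exon lengths came from GENCODE M21 (48058 identifiers matched). Values were taken as log2(normalized count + 1), which understates changes of low genes, and compared by limma 3.58.1 (trend, robust) in R 4.3.3, with Benjamini-Hochberg adjustment over 17007 genes. The fit was run on simulated counts with the same setting of spread for every gene. Those counts lack the differences between libraries of a group seen here, so the run does not show how the fit handles them. Alternatives included edgeR 4.0.16 and DESeq2 1.42.0 on recovered reads, which called 3272 and 4062 genes against 3234. Within a group no 2 libraries agreed within sampling noise. The members, the gene lists and the column division were chosen with earlier results of these data known. Named genes were the members, Sox11, the 3 of lowest p past the threshold in each list, genes needed to account for small counts, and the 3 of nearest pattern to Trp53, Cdkn1a and Eda2r. Mdm4, Eda, Sesn1, Trp63, Trp73 and Cdkn2a were named for their role after their values were seen. The result of a listed pathway gene is not reported here, although it is among the summed counts over the lists. The ACAAAG search was added after seeing the data. Figures used Python 3.11.15 and matplotlib 3.10.9.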

Additional observations from a re-analysis of the deposited data

How the results depend on the processing

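The 6 rises kept their direction in every alternative run. Without 1 library or within 1 division that direction was fixed in advance, since the groups of these genes do not overlap. The count of members called higher was 1 within libraries 1 to 3 and 4 within libraries 4 to 7. With no minimum level, a minimum of 50 (which leaves Eda2r untested) or a threshold of 0.01 that count was 5. Under every other alternative 6 members rose. The count of members that fell was 0 in place of 1 with no minimum level, within libraries 1 to 3, within libraries 4 to 7, and at a threshold of 0.01, and 0 to 1 with 1 library left out. Mdm2, the gene behind that count, had an unadjusted p in limma of 0.00177 to 0.0149 over those 10 fits, and edgeR and DESeq2 called it (adjusted p = 0.0285 and 0.00533). Of 88 tested pathway genes 13 rose and 7 fell, beside 9.65% and 9.36% of all tested genes. Those counts were 9 to 16 and 4 to 8 with 1 library left out (4 fell without GFP 4). They were 4 and 1 within libraries 1 to 3 and 8 and 3 at a threshold of 0.01, and 23 rose at 0.1. All tested genes gave 1642 and 1592, 1280 to 1569 and 1175 to 1699 with 1 library left out, 589 and 424 within libraries 1 to 3, and 816 and 721 at 0.01. Members that did not pass changed sign. With 1 library left out the log2 fold change was -0.0803 to 0.0154 for Ccng1, -0.0333 to 0.124 for Phlda3 and -0.00982 to 0.0338 for Sesn2. Within libraries 4 to 7 it was 0.13, -0.0491 and -0.0230, and with the division as a covariate -0.0239 for Phlda3. The cause was not tested. No paired analysis was possible because the columns do not carry the replicate numbers of the titles, and no label ties the column numbers that both groups share to a common litter, batch or day. Depth limits Eda2r most, at 21 to 98 reads.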

Other observations

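Phlda3 values differed by column number. The 5 libraries numbered 1 to 3 had 668 to 811 normalized counts, GFP and Sox11 together, and the 5 numbered 4 to 7 had 497 to 621. Eda2r had 46.7 to 68.1 normalized counts in Sox11 1, 2 and 3 and 75.5 and 104 in Sox11 6 and 7, while in the GFP group libraries 1 and 3 (28.02 and 29.9) were above libraries 4, 5 and 6 (27.5, 22.4 and 21.8). Both patterns were noticed in the data and have no test. Eda2r rested on 21 to 98 reads per library, and the order of its GFP libraries was not set against counting noise.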
